A study of Mus musculus with 10 samples.

Results

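Condensin and cohesin are ring-shaped complexes that organise chromosomes, and their transcripts were followed here in serum-starved mouse fibroblasts with and without *Lin37*. The 10 genes described are 7 condensin subunits (*Smc2*, *Smc4*, *Ncaph*, *Ncapd2*, *Ncapg*, *Ncapd3* and *Ncapg2*) and 3 cohesin subunits (*Smc1a*, *Smc3* and *Rad21*), chosen by their known place in the complexes and found by symbol among the 45232 gene entries of the expression matrix. The choice was made with earlier results of these data known, and the condensin subunit *Ncaph2* is not among the 10. All 10 passed the minimum mean level for testing, as did 16866 genes in all.

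RNA was sequenced from NIH3T3 cells, an established mouse fibroblast line, that had lost Lin37 through InDels introduced with a Cas9 nickase. Each of the 2 knockout lines is a single cell clone, clone 411-27 mutated in exon 4 and clone 632-2 mutated in exon 6. Both carried an episome that drives its insert upon doxycycline, which was luciferase in the knockout control (KO) and wild-type Lin37 in the rescue, so that the control and the rescue share the mutated genome. All cells were held without serum for 60 h before RNA was taken, and no library of cells with an unmutated *Lin37* gene or of growing cells belongs to the comparison. The exon 4 clone gave 4 libraries and the exon 6 clone gave 6, of which the third KO and the third rescue library of the exon 6 clone are technical replicates of the second. With these averaged, 4 KO and 4 rescue replicates were compared, 2 for each clone and genotype.

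Levels are RPKM, which are reads set relative to gene length and to the reads of the library, rescaled between libraries, so that levels of different genes are compared per length. Changes are differences in log2(RPKM + 0.5) between KO and rescue, given with the standard error, and they understate the change of genes with low levels. A gene was called when its adjusted *p* in limma was under 0.05. *Lin37* itself (ENSMUSG00000036845, chr7:30555441-30559838 of GRCm38, minus strand) was 0.285 and 0.284 RPKM in the exon 4 KO replicates and 0.417 and 0.274 RPKM in the exon 6 KO replicates, against 2.54 and 2.12 RPKM in exon 4 rescue cells and 4.92 and 4.76 RPKM in exon 6 rescue cells. It was lower in KO cells by a log2 change of -2.25 ± 0.17 (adjusted *p* = 0.000293, limma). Reads of the rescue episome count toward this gene. The factors that rescaled the libraries ran from 0.324 to 2.70, and between 7920 and 22034 entries of a library were listed at 0. Of 8 fibroblast markers all were above the minimum level, with summed levels of 470 to 765 RPKM in KO and 506 to 829 RPKM in rescue replicates, whereas 1 of 4 epithelial, 0 of 3 endothelial, 2 of 3 leukocyte and 1 of 3 muscle markers passed it, with sums of at most 1.49 RPKM in any replicate.

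Condensin compacts chromosomes as cells enter mitosis. It is built on a dimer of the ATPases Smc2 and Smc4, which a kleisin subunit closes into a ring and a pair of HEAT-repeat subunits completes. Condensin I carries Ncaph, Ncapd2 and Ncapg, and condensin II carries Ncaph2, Ncapd3 and Ncapg2. Cohesin, made of Smc1a, Smc3, the kleisin Rad21 and a Stag subunit, holds sister chromatids together and also forms chromatin loops in cells that do not divide. Lin37 is a subunit of the MuvB core of DREAM, a repressor of cell cycle genes in resting cells that contacts promoters at CHR elements through Lin54 and at E2F sites through its E2F subunit. Comparing KO with rescue asks which of these transcripts are higher when starved cells lack Lin37.

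All 7 condensin genes described rose in KO cells over both clones, and none of the 3 cohesin genes was called. The condensin subunit outside these 7, *Ncaph2*, was not called either (change 0.08, adjusted *p* = 0.87, limma). The changes of the 7 condensin genes ran from 0.75 to 1.80 on the log2 scale with adjusted *p*-values from 7.30e-05 to 0.00318 in limma, and those of cohesin from 0.06 to 0.33 with adjusted *p*-values from 0.573 to 0.947. Of all 16866 genes tested, 271 were called higher, which is 1.61%. The median change was 1.14 for the condensin genes and 0.18 for the cohesin genes, beside -0.03 for all genes tested. A difference between condensin and cohesin genes was not tested. Each condensin gene was higher in every KO replicate than in any rescue replicate, a separation found for 3.11% of all genes tested, whereas the groups overlapped for each cohesin gene. In bulk RNA, more cells that express a gene and more of its RNA per cell cannot be told apart.

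**Figure D1:**
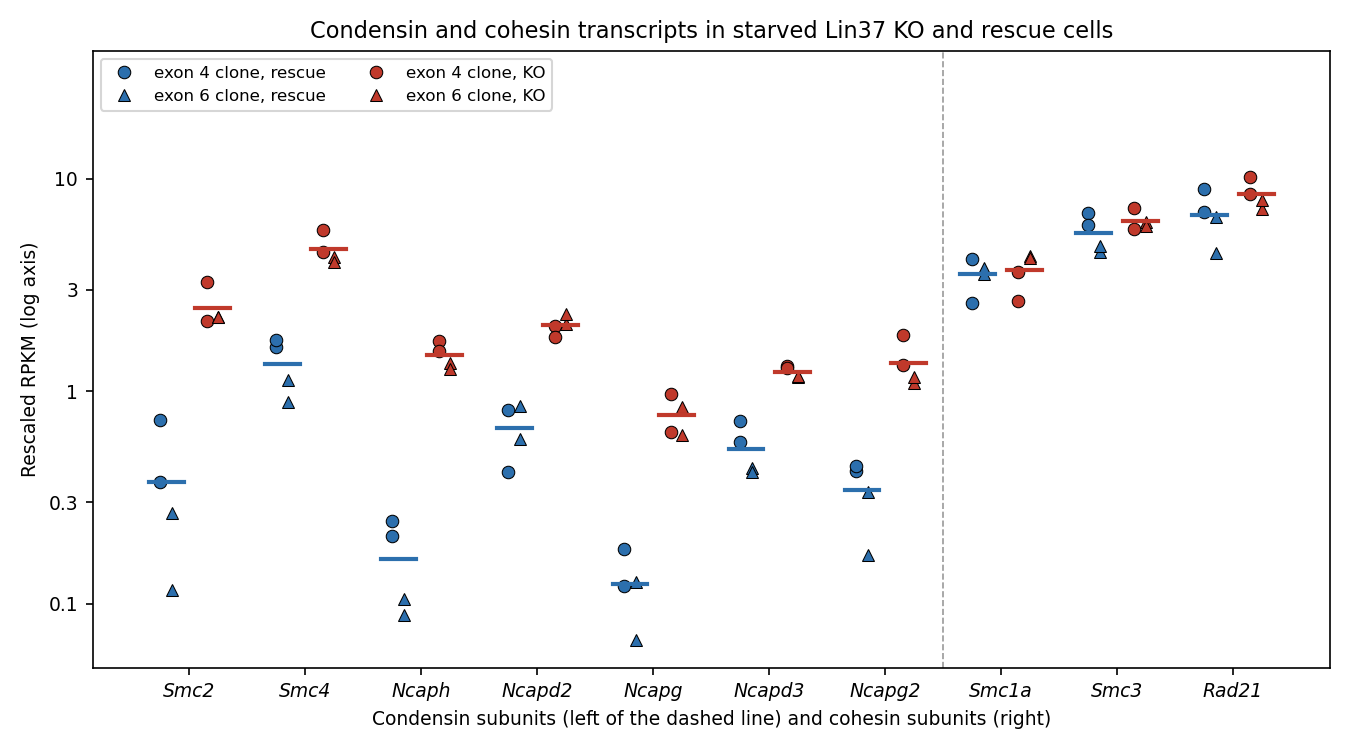
Rescaled RPKM (log axis) of the 7 condensin and 3 cohesin genes in each replicate, with circles for the exon 4 clone, triangles for the exon 6 clone, blue for rescue, red for KO, and bars at the mean of 4 replicates. The red and blue points are apart for every condensin gene, as for *Ncaph* with 1.28 to 1.72 RPKM in KO and 0.0882 to 0.245 RPKM in rescue, and they intermingle for *Smc1a*, *Smc3* and *Rad21*.

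Because the condensin genes moved together, their promoters were read for the letters of the elements that DREAM contacts. The promoter table of RefSeq (GRCm38.p6, 250 bases before to 50 after a start site) held 8 of the 10 genes, and not *Smc4* and *Rad21*. Both strands were searched. The CHR was searched as TTTGAA (found in 17.9% of all 32851 promoters), as its variant TTCGAA (found in 1.56%) and as the variant TTTAAA (found in 13.2%). The E2F site was searched as TTCCCGC (found in 4.60% of promoters), as its variant TTGGCGC (found in 2.45%), as the variant TTGCCGC (found in 1.81%) and as the variant TTCGCGC (found in 1.59%). Among all promoters, 28.8% held any CHR match, 9.57% any E2F match and 1.75% both. A CHR match was present in 4 of 6 condensin promoters at the start site nearest the annotated gene start, an E2F match in 5 of 6 and both in 3 of 6. Of the 2 cohesin promoters, 0 held a CHR match and 1 held an E2F match. These matches are letters in a window and not measured binding.

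The CHR matches at these start sites of the condensin genes, each TTTGAA or its reverse complement, are shown with their surroundings to let their flanks be compared, each read 5′ to 3′ on the strand of the gene, with the match in capitals and its first base counted from the start site.
Smc2 at -145, chr4:52439064-52439093, plus strand: tcgctttccatgTTCAAAacggtatagtct
Smc2 at 27, chr4:52439235-52439264, plus strand: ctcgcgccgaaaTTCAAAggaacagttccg
Ncapd2 at -123, chr6:125191692-125191721, minus strand: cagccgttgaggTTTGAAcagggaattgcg
Ncapg at -30, chr5:45669883-45669912, plus strand: ccgcgatagttgTTTGAAaactctggcgct
Ncapg2 at -18, chr12:116405406-116405435, plus strand: tacgcgggtgtgTTTGAAtctggtccgagc
The matches of *Ncapg* and *Ncapg2* lay within 30 bases upstream of the start site and read TTTGAA on the strand of the gene. Those of *Smc2* read TTTGAA on the opposite strand.

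E2F matches are shown for 1 condensin I gene with matches of both classes, for the condensin genes that have an E2F match and no CHR match, and for the cohesin gene that has one.
Ncapd2 at -7, chr6:125191576-125191605, minus strand: ccatctcgttgtTTGGCGCgtatcctgccc
Ncaph at 42, chr2:127133905-127133934, minus strand: gtcacgcggcggttaccgcgcTTGGCGCtc
Ncapd3 at -240, chr9:27029915-27029944, plus strand: gggaggaaagGCGCCAAgcacgcgcgtctc
Smc1a at 39, chrX:152016448-152016477, plus strand: cggcttgcactgcgctatTTCCCGCgcggg
*Ncapg* also had an E2F match at 32, and *Ncapg2* had E2F matches at -249 and 1. For *Ncapd3* the table lists another start site, 30241 bases from the annotated gene start, whose window held no E2F match and CHR matches that are not shown, TTTGAA on the opposite strand at -249 and the variant TTTAAA at -132.

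To set a promoter of a gene that rose beside one of a gene that was not called, the 250 bases upstream of *Ncapg* and of *Smc3* are given, with the CHR match of *Ncapg* in capitals. This pair was picked. *Ncaph* and *Ncapd3* rose without a CHR match at these start sites, and *Smc1a* was not called but has an E2F match. Whether the matches bear on the changes was not tested. In the *Smc3* window none of the letters searched was found, which says nothing about the binding of a factor.
Ncapg, chr5:45669675-45669924, plus strand: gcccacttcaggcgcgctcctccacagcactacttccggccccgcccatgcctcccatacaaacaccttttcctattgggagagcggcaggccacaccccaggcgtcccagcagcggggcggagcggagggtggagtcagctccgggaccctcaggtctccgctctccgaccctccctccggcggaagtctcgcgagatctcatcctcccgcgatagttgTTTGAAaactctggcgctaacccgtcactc
Smc3, chr19:53600146-53600395, plus strand: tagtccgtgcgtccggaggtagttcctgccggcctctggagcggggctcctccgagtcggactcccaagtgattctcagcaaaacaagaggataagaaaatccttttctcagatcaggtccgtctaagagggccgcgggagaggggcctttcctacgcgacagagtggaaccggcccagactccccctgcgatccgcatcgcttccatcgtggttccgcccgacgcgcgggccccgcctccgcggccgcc

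**Figure D2:**
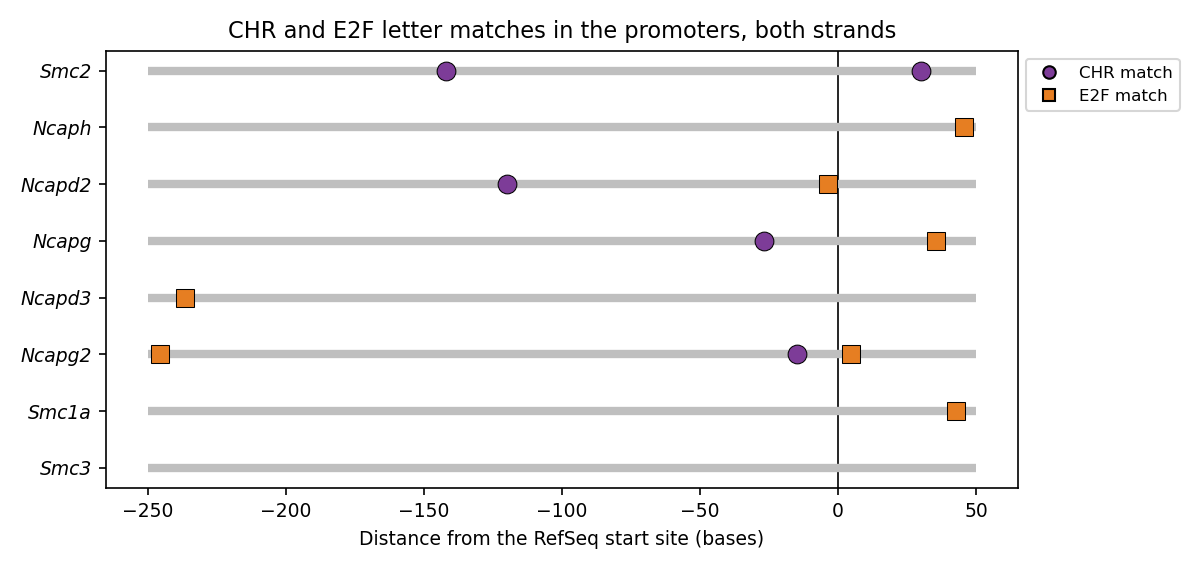
Positions of CHR (circles) and E2F (squares) letter matches on either strand, in bases from the RefSeq start site, for the 8 genes with a promoter in the table. *Ncapd2*, *Ncapg* and *Ncapg2* have matches of both classes, and *Smc3* has none.

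The SMC ATPases of condensin, shared by condensin I and II, rose in KO cells. *Smc2* (ENSMUSG00000028312, chr4:52439243-52488260, plus strand) was 2.15 and 3.27 RPKM in the exon 4 KO replicates and 2.23 and 2.23 RPKM in the exon 6 KO replicates, against 0.376 and 0.736 RPKM in exon 4 rescue cells and 0.116 and 0.268 RPKM in exon 6 rescue cells. All KO replicates were above all rescue replicates, and the second exon 4 KO replicate was the highest. With the pseudocount of 0.5, *Smc2* had the largest change of the 10 genes, 1.80 ± 0.17 (adjusted *p* = 0.000858, limma), from a mean of 0.374 ± 0.264 to 2.47 ± 0.536 RPKM (SD, n = 4). Over the alternatives its change reached 2.59 and that of *Ncaph* 2.63. *Smc4* (ENSMUSG00000034349, chr3:69004738-69034623, plus strand) was 4.51 and 5.74 RPKM in the exon 4 KO replicates and 4.29 and 4.05 RPKM in the exon 6 KO replicates, against 1.62 and 1.74 RPKM in exon 4 rescue cells and 0.895 and 1.13 RPKM in exon 6 rescue cells. Its groups did not overlap either, and its rescue level of 1.35 ± 0.400 RPKM (SD, n = 4) was the highest among the condensin genes. The change of *Smc4* was 1.49 ± 0.11 (adjusted *p* = 0.000293, limma).

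*Ncaph* (ENSMUSG00000034906, chr2:127103809-127133954, minus strand), the kleisin of condensin I, was 1.72 and 1.55 RPKM in the exon 4 KO replicates and 1.36 and 1.28 RPKM in the exon 6 KO replicates, against 0.209 and 0.245 RPKM in exon 4 rescue cells and 0.0882 and 0.105 RPKM in exon 6 rescue cells. It was low in every rescue replicate and had the lowest adjusted *p* of the 10 genes, with a change of 1.58 ± 0.08 (adjusted *p* = 7.30e-05, limma). The KO mean was 9.14 times the rescue mean, the largest ratio of means among the 10 genes. The kleisin of condensin II, *Ncaph2*, is not one of the 10 genes and was read beside it. *Ncaph2* stood at 1.79 ± 0.442 RPKM in KO cells and at 1.65 ± 0.290 RPKM in rescue cells (SD, n = 4), with overlapping groups and a change of 0.08 ± 0.10 (adjusted *p* = 0.87, limma; 95% interval -0.15 to 0.31).

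The HEAT-repeat subunits of condensin I, which help the complex bind chromosomes, rose as well. *Ncapd2* (ENSMUSG00000038252, chr6:125168007-125191701, minus strand) was 2.02 and 1.79 RPKM in the exon 4 KO replicates and 2.07 and 2.31 RPKM in the exon 6 KO replicates, against 0.817 and 0.419 RPKM in exon 4 rescue cells and 0.595 and 0.857 RPKM in exon 6 rescue cells, without overlap of the groups. Its change was 1.13 ± 0.13 (adjusted *p* = 0.00263, limma). The small RNA gene *Scarna10* shares 237 exonic bases with *Ncapd2* on the same strand. *Scarna10* was also higher in KO than in rescue in 4 of 4 same-numbered comparisons, with 12.1 to 31.8 RPKM in KO libraries and 3.53 to 19.8 RPKM in rescue libraries. The share of all genes with such a count was not taken, here or below. Its part in the *Ncapd2* result was not tested.

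*Ncapg* (ENSMUSG00000015880, chr5:45669919-45700546, plus strand), the other HEAT-repeat subunit of condensin I, was 0.645 and 0.971 RPKM in the exon 4 KO replicates and 0.623 and 0.840 RPKM in the exon 6 KO replicates, against 0.121 and 0.182 RPKM in exon 4 rescue cells and 0.0673 and 0.127 RPKM in exon 6 rescue cells. Its mean was the lowest of the 10 genes in both genotypes, and again the groups did not overlap. The change of *Ncapg* was 1.02 ± 0.12 (adjusted *p* = 0.00258, limma), while the KO mean was 6.20 times the rescue mean. *Lcorl* overlaps 944 exonic bases of *Ncapg* on the opposite strand, and whether strand was used in counting is not given in the sources used here. *Lcorl* ranged from 0.0929 to 0.211 RPKM in KO and from 0.0540 to 0.336 RPKM in rescue libraries, and was higher in KO in 2 of 4 same-numbered comparisons.

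The HEAT-repeat subunits particular to condensin II also rose. *Ncapd3* (ENSMUSG00000035024, chr9:27030175-27095315, plus strand) was 1.31 and 1.28 RPKM in the exon 4 KO replicates and 1.17 and 1.18 RPKM in the exon 6 KO replicates, against 0.574 and 0.722 RPKM in exon 4 rescue cells and 0.433 and 0.415 RPKM in exon 6 rescue cells. It had the smallest change of the condensin genes, 0.75 ± 0.09 (adjusted *p* = 0.00318, limma), without overlap of the groups. *Ncapg2* (ENSMUSG00000042029, chr12:116405402-116463731, plus strand) was 1.34 and 1.83 RPKM in the exon 4 KO replicates and 1.10 and 1.16 RPKM in the exon 6 KO replicates, against 0.420 and 0.447 RPKM in exon 4 rescue cells and 0.170 and 0.335 RPKM in exon 6 rescue cells. KO and rescue were apart for *Ncapg2* too, with a change of 1.14 ± 0.11 (adjusted *p* = 0.00113, limma). Among the condensin II subunits, those for the HEAT repeats were thus called and *Ncaph2* was not. Whether the change of *Ncaph2* differs from theirs was not tested.

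The cohesin genes were more abundant than the condensin genes in rescue cells and did not pass the test. *Smc1a* (ENSMUSG00000041133, chrX:152016428-152062694, plus strand), an ATPase of the cohesin ring, was 2.66 and 3.64 RPKM in the exon 4 KO replicates and 4.34 and 4.23 RPKM in the exon 6 KO replicates, against 2.61 and 4.19 RPKM in exon 4 rescue cells and 3.57 and 3.81 RPKM in exon 6 rescue cells. The spread between the exon 4 replicates of either genotype exceeded the difference between the genotypes, and the change was 0.06 ± 0.15 (adjusted *p* = 0.947, limma; 95% interval -0.29 to 0.40). It was -0.04 without the first exon 4 rescue replicate. *Smc3* (ENSMUSG00000024974, chr19:53600398-53645833, plus strand), its ATPase partner, was 7.27 and 5.78 RPKM in the exon 4 KO replicates and 6.27 and 6.01 RPKM in the exon 6 KO replicates, against 6.91 and 6.06 RPKM in exon 4 rescue cells and 4.50 and 4.82 RPKM in exon 6 rescue cells. Exon 6 KO replicates were above exon 6 rescue replicates, whereas the exon 4 replicates overlapped. The change of *Smc3* was 0.18 ± 0.12 (adjusted *p* = 0.733, limma; 95% interval -0.09 to 0.45).

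*Rad21* (ENSMUSG00000022314, chr15:51962240-51991747, minus strand), the cohesin kleisin that separase cleaves at anaphase, was 8.49 and 10.2 RPKM in the exon 4 KO replicates and 7.20 and 7.91 RPKM in the exon 6 KO replicates, against 6.95 and 8.98 RPKM in exon 4 rescue cells and 4.46 and 6.59 RPKM in exon 6 rescue cells. It was the most abundant of the 10 genes in both genotypes. KO exceeded rescue in 4 of 4 same-numbered comparisons, a count whose share of all genes was not taken. The groups overlapped, and the change of 0.33 ± 0.15 was not called (adjusted *p* = 0.573, limma; 95% interval -0.0019 to 0.67). The upper bounds of the 3 cohesin intervals, 0.40, 0.45 and 0.67, were below the smallest condensin change of 0.75, although the interval of *Rad21* overlapped that of *Ncapd3* (0.54 to 0.96). Whether the cohesin changes differ from the condensin changes was not tested. Without the replicate block, none of the 3 had an unadjusted *p* under 0.05 over both clones. With the block, *Rad21* had one of 0.0162 (95% interval 0.083 to 0.58, adjusted *p* = 0.253, limma), where 12.6% of all genes were under 0.05, and *Smc1a* and *Smc3* remained above 0.05. Without rescaling, the median of all genes was shifted by 0.64 toward KO. On those values all 7 condensin genes were called against no change, with changes of 1.39 to 2.45, and the cohesin changes of 0.98 to 1.28 were not (adjusted *p* = 0.0763 to 0.0999, limma). Less the shift, the changes were 0.76 to 1.81 for condensin and 0.35 to 0.65 for cohesin, and these differences from the shift were not tested.

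Ratios of subunits were taken within each of the 10 libraries, technical replicates apart, where they do not depend on the rescaling. *Smc2* stood at 0.296 to 0.566 of *Smc3* in the 5 KO libraries and at 0.0258 to 0.121 in the 5 rescue libraries. The ratio of *Smc4* to *Smc1a* was 0.944 to 1.70 in KO and 0.251 to 0.621 in rescue, and that of *Ncaph* to *Rad21* was 0.152 to 0.203 in KO and 0.0122 to 0.0301 in rescue. The level of the condensin gene relative to the cohesin gene was higher in KO in all 3 of these ratios, without overlap. Each of them sets a gene that was called over one that was not, so the separation is no further support. The share of all gene pairs that separate in this way was not taken. Within condensin, *Ncaph* to *Ncaph2* was 0.655 to 1.01 in KO and 0.0568 to 0.122 in rescue, so that the kleisin transcripts of condensin I and II were closer in level in KO cells. *Smc2* to *Smc4* was 0.445 to 0.651 in KO and 0.130 to 0.423 in rescue. The libraries of the genotypes overlapped for *Ncapg* to *Ncapg2*, with 0.482 to 0.740 in KO and 0.183 to 0.499 in rescue, and for *Ncapd2* to *Ncapd3*, with 1.40 to 2.14 in KO and 0.581 to 3.41 in rescue. These ratios are descriptions with no test.

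The order of mean levels per length in rescue cells was *Rad21*, *Smc3*, *Smc1a*, *Smc4*, *Ncapd2*, *Ncapd3*, *Smc2*, *Ncapg2*, *Ncaph* and *Ncapg*. In this order the replicates of *Smc3* and *Smc1a*, of *Smc1a* and *Smc4*, and of *Smc4* and *Ncapd2* did not overlap, whereas *Rad21* overlapped *Smc3* and every gene from *Ncapd2* down overlapped the next. In KO cells the order was *Rad21*, *Smc3*, *Smc4*, *Smc1a*, *Smc2*, *Ncapd2*, *Ncaph*, *Ncapg2*, *Ncapd3* and *Ncapg*. *Smc4* then stood beside *Smc1a*, with 4.65 ± 0.754 and 3.72 ± 0.770 RPKM (SD, n = 4) and overlapping replicates, and *Smc2* had moved above *Ncapd2*, with which it overlapped, and *Ncapd3*. The KO replicates of *Smc3* and *Smc4*, of *Ncapd2* and *Ncaph*, and of *Ncapd3* and *Ncapg* did not overlap, whereas all other neighbours did.

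Changes were then read for each clone from a fit of both, with the spread shared over all groups. In the exon 6 clone 6 of 7 condensin genes were called higher, where 1.03% of all genes were, with changes of 0.86 to 1.99. *Ncapd2* was the exception (change 1.14 ± 0.20, adjusted *p* = 0.0574, limma). It was called with a pseudocount of 1, without rescaling, with technical replicates kept apart and in a fit of that clone by itself. *Ncapg* lost its call with a pseudocount of 1 or without the trend of limma (adjusted *p* = 0.069 and 0.051, limma), and *Ncapd3* without rescaling (adjusted *p* = 0.0639, limma). With the replicate number as a block, *Ncapd2* was called (adjusted *p* = 0.0447) and *Ncapd3* was not (adjusted *p* = 0.0613), and 0 to 2 of the condensin genes were called in limma when any replicate of that clone was left out. In the exon 4 clone 4 of 7 were called, *Smc2*, *Smc4*, *Ncaph* and *Ncapg2*, where 0.599% of all genes were, with changes of all 7 between 0.65 and 1.60. With the block, *Ncapg2* was not called there (adjusted *p* = 0.0544, limma), leaving 3, and leaving out any replicate of either clone left 1 or 2. In a fit of the exon 4 libraries by themselves 0 of the 7 were called by limma, as were 0 of all genes, and 1 was called with no minimum level or without rescaling. A pseudocount of 0.1 or a minimum of 1 RPKM left 2 there, and in the exon 6 clone either a minimum of 1 RPKM or none left 2. All 7 condensin genes had an unadjusted *p* under 0.05 in either clone. Of all genes, 6.44% did so in exon 6 and 8.92% in exon 4 cells.

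For *Smc2* the change was 1.99 ± 0.23 in exon 6 cells and 1.60 ± 0.23 in exon 4 cells, and for *Ncaph* it was 1.61 ± 0.12 and 1.56 ± 0.12. Of the cohesin genes, 0 of 3 were called by limma in either clone, where 1.03% of all genes in exon 6 and 0.599% in exon 4 cells were called higher. *Smc3* in the exon 6 clone had an unadjusted *p* under 0.05 (change 0.36 ± 0.15, adjusted *p* = 0.756, limma), as *Rad21* did there with the block only (0.0225, adjusted *p* = 0.409, limma). Of all genes there, 6.44% were under 0.05 without the block and 9.17% with it. The change of *Smc3* in the exon 4 clone was 0.0023 ± 0.15, which turns negative in some alternatives. The difference between the clones, tested as the interaction, was called for 0 of the 10 genes (adjusted *p* = 0.997 for each, limma), and none had an unadjusted *p* under 0.05. Over all genes 0 were called (0%), and 685 had an unadjusted *p* under 0.05, which is 4.06%. The intervals are wide, as for *Smc2* with a difference of 0.38 (95% interval -0.39 to 1.16) and *Ncaph* with 0.05 (95% interval -0.35 to 0.46), so that differences of these sizes were not excluded.

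**Figure D3:**
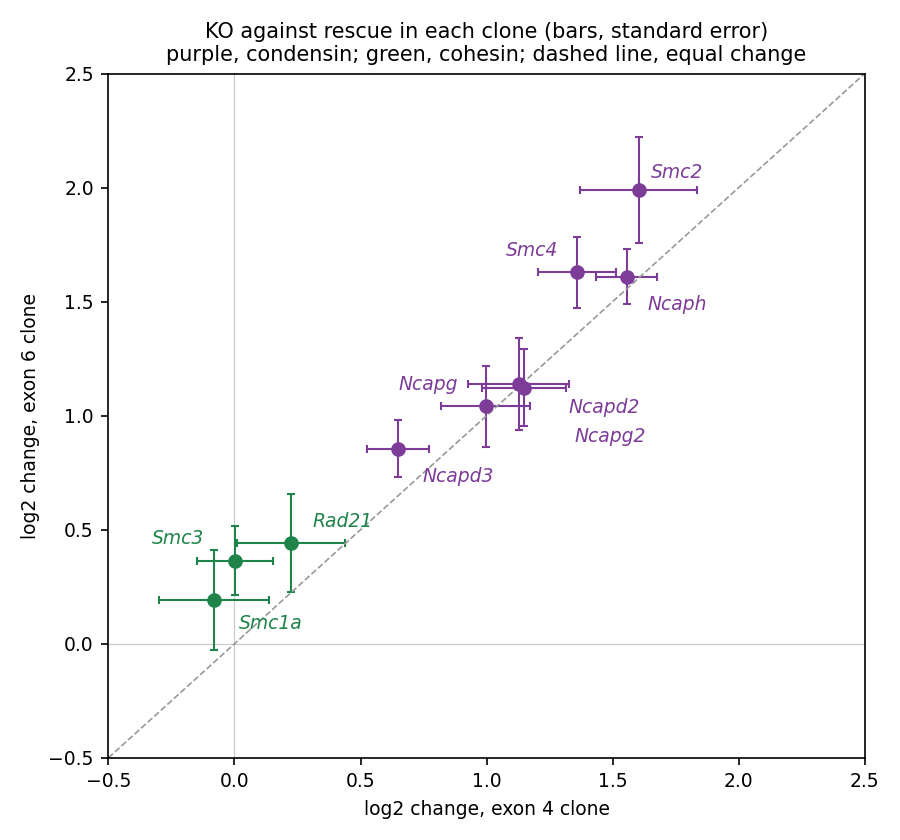
log2 change of KO against rescue for the exon 4 clone (horizontal) and for the exon 6 clone (vertical) for the 10 genes, with bars for the standard error, condensin in purple, cohesin in green and a dashed line of equal change. The condensin genes lie between 0.65 and 1.60 on the horizontal and 0.86 and 1.99 on the vertical axis, and the cohesin genes at or below 0.23 and 0.44.

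Genes that act with these complexes were read from lists chosen by function. The other cohesin subunits *Stag1* and *Stag2* were not called (changes -0.04 and 0.08, adjusted *p* = 0.938 and 0.926, limma), and *Stag3*, *Smc1b*, *Rec8* and *Rad21l*, known from meiosis, were below the minimum level. Of 10 genes for cohesin loading, release and acetylation, 1 was called higher, beside 1.61% of all genes. This was *Cdca5* (Sororin), which protects cohesin on replicated chromatids and stood at 0.884 ± 0.139 RPKM in KO and 0.0451 ± 0.0442 RPKM in rescue (SD, n = 4), with a change of 1.34 ± 0.11 (adjusted *p* = 0.000465, limma). The rescue means of *Cdca5* and of *Esco2*, read below, were under the minimum of 0.1 RPKM for testing, which both passed only through their KO level. *Cdca5* falls below a minimum of 1 RPKM, with which 6 of the 10 were tested and 0 called by limma. The loader genes *Nipbl* and *Mau2*, the release genes *Wapl*, *Pds5a* and *Pds5b*, and *Ctcf*, which positions cohesin loops, had changes of 0.01, -0.21, 0.06, 0.08, -0.06 and 0.03 and were not called. *Mau2* was lower in KO in 4 of 4 same-numbered comparisons, again without a share of all genes to set beside it. With the block its unadjusted *p* was 0.0433 (adjusted *p* = 0.372, limma), where 12.6% of all genes were under 0.05. *Esco2*, an acetyltransferase of Smc3 in S phase, stood at 0.166 ± 0.0428 RPKM in KO and 0.0421 ± 0.0608 RPKM in rescue (SD, n = 4). It was higher in KO in 4 of 4 same-numbered comparisons, for which the share of all genes was likewise not taken. Its groups overlapped, and its change of 0.30 ± 0.12 was not called (unadjusted *p* = 0.0324, adjusted *p* = 0.477, limma).

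All 5 genes for the centromeric protection and the cleavage of cohesin rose, where 1.61% of all genes did. *Pttg1*, the separase inhibitor securin, went from 0.353 ± 0.109 to 2.35 ± 0.598 RPKM (SD, n = 4; change 1.72 ± 0.14, adjusted *p* = 0.000373, limma), and *Espl1*, separase itself, from 0.109 ± 0.0383 to 0.722 ± 0.181 RPKM (SD, n = 4; change 0.99 ± 0.11, adjusted *p* = 0.00218, limma). The shugoshins *Sgo1* and *Sgo2a*, which shield centromeric cohesin, changed by 0.84 ± 0.14 and 0.97 ± 0.13, and the histone kinase *Haspin* by 0.94 ± 0.14 (adjusted *p* = 0.0205, 0.0057 and 0.00939, limma). The rescue means of the shugoshins, 0.0539 and 0.0991 RPKM, were below the minimum of 0.1 RPKM, which both passed only through their KO level. Read by clone, 5 of 5 were called in exon 6 cells and 1 of 5, *Pttg1*, in exon 4 cells, beside 1.03% and 0.599% of all genes. These counts by clone did not hold. The exon 4 count rose to 3 with quantile normalization and to 2 with technical replicates kept apart, and fell in other alternatives. In exon 6 cells 0 or 1 was called by limma when any exon 6 replicate was left out and 1 with no minimum level, and in exon 4 cells 0 were called in a fit of that clone by itself, with no minimum level, without rescaling, without either exon 4 KO replicate, without the second exon 4 rescue replicate or without either exon 6 KO replicate. The change of *Sgo1* was 1.13 in exon 6 and 0.55 in exon 4 cells (adjusted *p* = 0.297 in the latter), a difference of 0.58 (unadjusted *p* = 0.0309, adjusted *p* = 0.997, limma). These regulators of cohesin in mitosis were called while the ring genes were not, and the difference between them was not tested. *Sgo1* was not called when the second exon 4 KO replicate or any exon 6 replicate was left out (adjusted *p* = 0.0603 to 0.115, limma). *Haspin* was not called without either exon 6 KO replicate or without the second exon 6 rescue replicate (adjusted *p* = 0.051 to 0.0592, limma), nor without the clone covariate (adjusted *p* = 0.0627, limma). With no minimum level 3 of the 5 were called, since *Sgo1* and *Haspin* then had adjusted *p*-values of 0.139 and 0.0707 in limma. A minimum of 1 RPKM left 1 gene, *Pttg1*, in the test, which was called but passed that minimum only through its KO level. Its rescue mean was 0.353 RPKM, so this call is no support for the change.

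Of 8 mitotic partners of condensin on chromosomes, 6 rose, again beside 1.61% of all genes. *Top2a*, the topoisomerase that disentangles chromatids, had the largest change, 2.01 ± 0.16 (adjusted *p* = 0.000352, limma), from 1.09 ± 0.518 to 5.67 ± 1.03 RPKM (SD, n = 4). *Aurkb*, the kinase of the chromosomal passenger complex, changed by 1.42 ± 0.13, the chromosome surface protein *Mki67* by 1.13 ± 0.17, the chromokinesin *Kif4* by 1.11 ± 0.12, the mitotic kinase *Plk1* by 1.09 ± 0.14 and *Mcph1*, which restrains condensin II, by 0.65 ± 0.10, with adjusted *p*-values from 0.000679 to 0.0127 in limma. *Kif4* had a rescue mean of 0.0929 RPKM, below the minimum of 0.1 RPKM, and passed it only through its KO level. *Akap8* and *Set* were not called (changes 0.13 and 0.05). Of the 8 partners, 6 were called in exon 6 cells and 2, *Top2a* and *Aurkb*, in exon 4 cells, beside 1.03% and 0.599% of all genes. With the block *Mcph1* was not called in exon 6 cells nor *Aurkb* in exon 4 cells (adjusted *p* = 0.064 and 0.0612, limma). The counts by clone moved here too, to between 0 and 2 in exon 6 cells without any 1 of their replicates and to 1 with no minimum level, and in exon 4 cells to 0 by limma in a fit of that clone by itself, with no minimum level or without rescaling, and to between 0 and 3 with a replicate of either clone left out. *Mki67* changed by 1.50 in exon 6 and 0.76 in exon 4 cells (adjusted *p* = 0.148 in the latter), a difference of 0.74 (unadjusted *p* = 0.0145, adjusted *p* = 0.997, limma). *Mki67* lost its call without either exon 6 KO replicate (adjusted *p* up to 0.0567, limma), and *Mcph1* without any of the 4 exon 6 replicates (adjusted *p* up to 0.0832, limma). With no minimum level neither was called (adjusted *p* = 0.0782 and 0.0676, limma), and a minimum of 1 RPKM left 3 partners in the test, of which *Top2a* was called.

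The SMC5/6 complex, a further relative of condensin that acts in DNA repair, had 0 of 6 genes called, where 1.61% of all genes were called higher. Its changes ran from -0.20 to 0.34 with adjusted *p*-values from 0.576 to 0.786 in limma. Over both clones 0 of these 6 genes had an unadjusted *p* under 0.05 without the block, where 8.79% of all genes did, and *Nsmce1* (0.026) and *Nsmce2* (0.0473) did with it (adjusted *p* = 0.314 and 0.386, limma), where 12.6% of all genes did. The SMC ATPases *Smc5* and *Smc6* stood at 2.28 ± 0.435 and 2.85 ± 0.292 RPKM in KO and 1.91 ± 0.253 and 2.55 ± 0.860 RPKM in rescue (SD, n = 4), with changes of 0.20 and 0.17 and overlapping groups. In the exon 6 clone alone their changes were 0.49 and 0.48 (unadjusted *p* = 0.00798 and 0.0143, adjusted *p* = 0.320 and 0.440, limma), and the clones differed by 0.58 and 0.61 (unadjusted *p* = 0.0181 and 0.0224, adjusted *p* = 0.997 for both, limma). *Nsmce4a*, the kleisin of the complex, stood at 1.48 ± 0.308 RPKM in KO against 1.14 ± 0.645 RPKM in rescue cells (SD, n = 4), with a change of 0.34 and overlapping groups. On the unrescaled values it was the 1 gene of the 6 that was called against no change. On those values 875 of all genes were called higher and the median of all genes was shifted by 0.64 toward KO. *Nsmce1*, a RING subunit, was the member whose groups did not overlap, with 0.803 to 1.37 RPKM in KO and 0.533 to 0.786 RPKM in rescue, as for 3.11% of all genes. The median changes of the lists were 0.02 for loading, release and acetylation, 0.97 for protection and cleavage, 1.10 for the mitotic partners and 0.22 for SMC5/6, beside -0.03 for all genes. No gene of any of these lists was called lower over both clones, where 14 of all 16866 genes tested were.

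**Figure D4:**
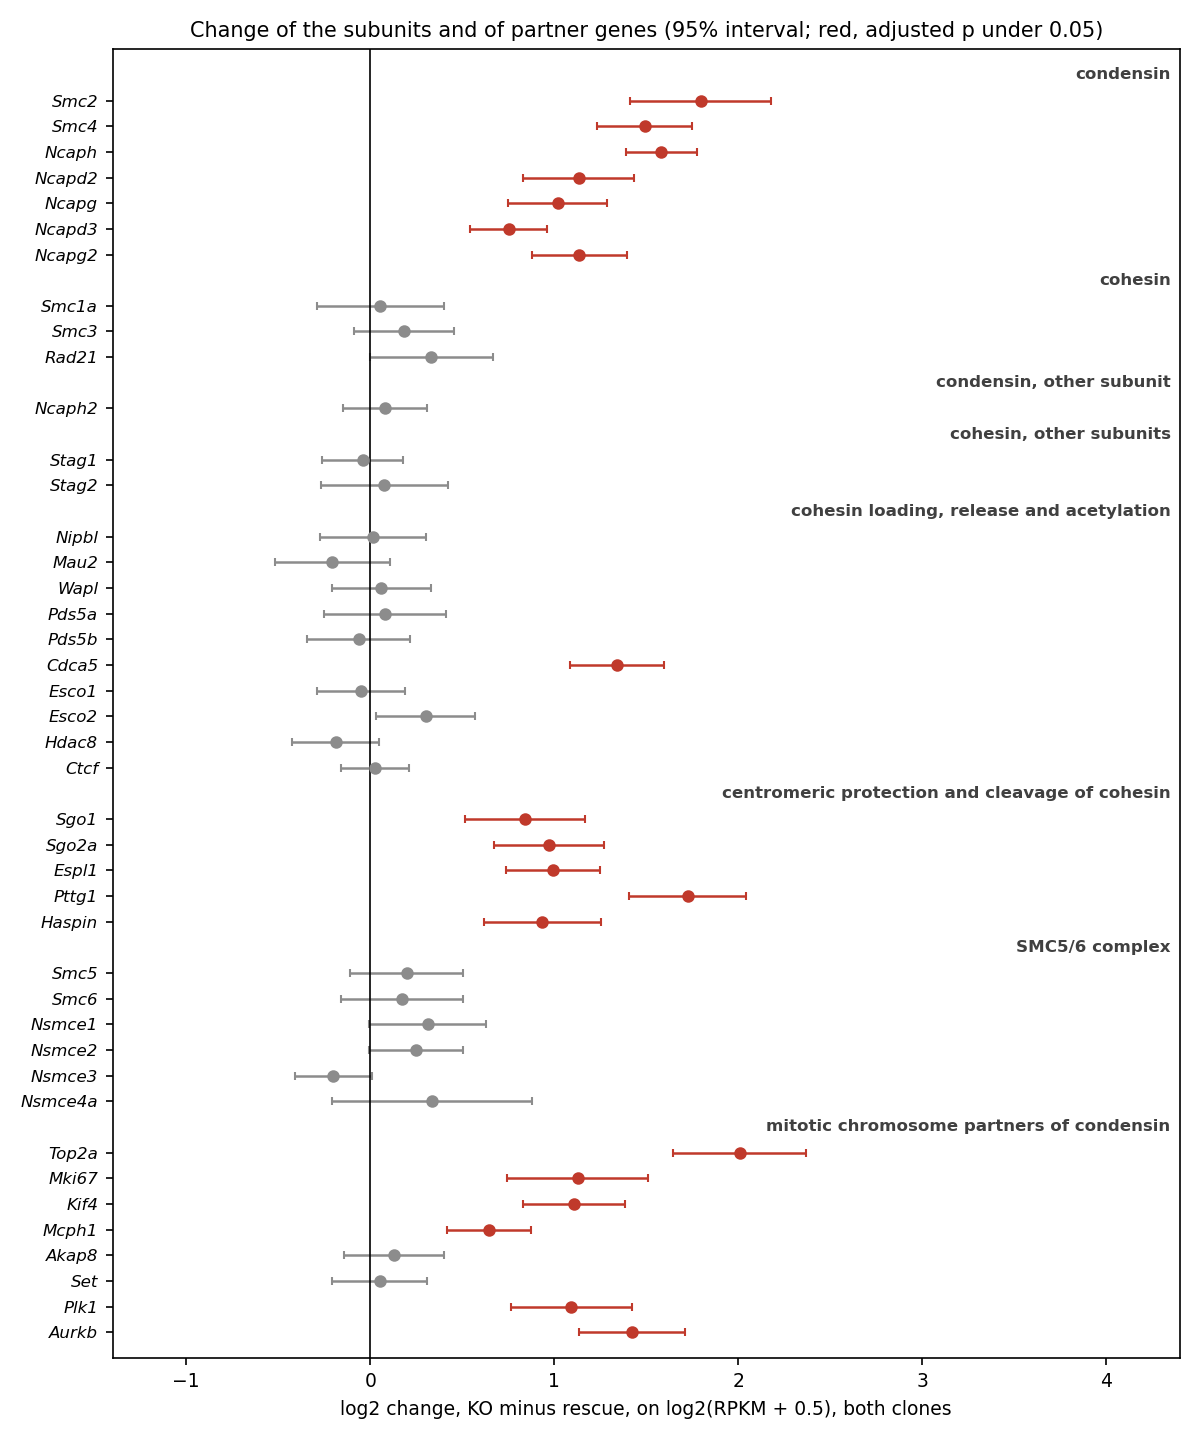
log2 change of KO against rescue over both clones (horizontal, difference in log2 of RPKM + 0.5) with 95% intervals for the 10 genes and the tested genes of the lists, red where the adjusted *p* was under 0.05 and grey otherwise. All 7 condensin genes of the 10 and all 5 genes for protection and cleavage of cohesin are red. The cohesin and SMC5/6 genes and the condensin subunit *Ncaph2* are grey.

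Outside the 10 genes and the lists, 7529 genes had a mean level of 1 RPKM or more, and those whose profile over the 8 replicates was closest to the mean condensin profile were *Lig1*, *Haus6* and *Lin54*. Closeness was the root mean square difference of centred log2 values, and it was 0.0881, 0.139 and 0.145, beside 0.110 for *Ncapg2*, 0.152 for *Smc4* and 0.316 for *Smc2*. *Lig1* encodes a DNA ligase of replication, *Haus6* a subunit of augmin at the spindle and *Lin54* the CHR-binding subunit of MuvB. Their KO means of 2.14, 1.88 and 1.64 RPKM stood against rescue means of 0.612, 0.633 and 0.413 RPKM, so they passed the minimum of 1 RPKM only through their KO level. The search returns the nearest genes by design, so their likeness to condensin is no support for its change. The condensin genes set beside them are themselves part of the mean profile. Closest to the mean cohesin profile were *Ugp2*, *Vps35* and *Thoc3*, with 0.0669, 0.0694 and 0.0701, beside 0.169 for *Smc3*, 0.177 for *Rad21* and 0.239 for *Smc1a*. These are descriptions with no test.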

How the data were processed

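rRNA-depleted RNA of starved NIH3T3 cells was sequenced with paired ends from 10 libraries. The authors clipped adapters with cutadapt, mapped reads to mm10 with segemehl, counted genes of GENCODE vM5 with rnacounter and deposited RPKM values. The submitters' notes also name Picard. The depth is unknown, since only 12.4% to 22.5% of low values per library were whole multiples of the value of 1 read (within 0.05 of a whole number, up to 20 reads), so no counting intervals are given. Clones and genotypes came from the sample labels, and the exon of each clone from the study's methods. Nothing states whether the biological replicates were separate cultures, and the *p*-values measure the spread between these samples.

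Libraries were rescaled by median-of-ratios factors from 8523 genes averaging 1 RPKM or more. The technical replicates were averaged. They differed by a median of 0.185 and 0.235 on the log2 scale per gene, and biological replicates by 0.128 to 0.239. Genes averaging 0.1 RPKM or more were tested on log2(RPKM + 0.5) with limma 3.58.1 in R 4.3.3 (trended eBayes) and clone as covariate, and *p*-values were adjusted by Benjamini-Hochberg over all 16866 genes. Per-clone changes and the difference between the clones came from a fit of 4 group means. Same-numbered KO and rescue replicates deviated together from their group means (correlation 0.477 in the exon 4 and 0.360 in the exon 6 clone, over 7550 genes), and the numbers in the labels were taken as pairing them, so a fit with the replicate number as a block was run too. Positions are those of GENCODE M21 on GRCm38, in which 44585 of 45232 identifiers had a symbol, and promoter sequences are from RefSeq. Python 3.11.15, pandas 2.3.3, numpy 2.4.6 and matplotlib 3.10.9 were used, and the fit was tested on simulated data. There, of 17578 genes, 100 were changed by 1 on the log2 scale and another 100 by 2. All were drawn from genes above a higher minimum level than that for testing. The noise was equal and independent for every gene and replicate, without clone differences or pairing, so these counts need not hold for the real data. Of the genes changed by 1, over both clones 100 were recovered, with 8 false calls among the unchanged genes. In the exon 6 clone 91 were recovered with 15 false calls, and in the exon 4 clone 92 with 9.

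The genes described, the lists of partner genes and the tests were chosen with earlier results of these data known. Named are the 10 subunits, *Lin37*, and the listed genes that were called or averaged 1 RPKM or more. Listed genes named beyond that rule, *Stag1*, *Esco2*, *Nsmce1*, *Nsmce2* and the meiotic cohesin genes, were chosen after their values were seen. The alternatives were other pseudocounts, minimum levels and scalings, separate technical replicates, the block, no clone covariate, no trend, each clone alone and each replicate left out.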

Additional observations from a re-analysis of the deposited data

Results flagged for a closer look

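In *Smc2*, the second exon 4 KO replicate stood at 3.27 RPKM, far from the other KO replicates at 2.15 to 2.23 RPKM, with a gap of 0.929 of the range of the 4 KO replicates. In *Lin37*, the first exon 6 KO replicate stood at 0.417 RPKM, above the other KO replicates at 0.274 to 0.285 RPKM, with a gap of 0.918 of the range. In all, 22 groups of 4 replicates, for the subunits and *Lin37*, were looked at. Chance alone sets apart a replicate in about 1 in 20 groups whose 4 values come from the same distribution. Each group here mixes the 2 clones, whose levels can differ, so that rate need not hold. Without that *Smc2* replicate the gene remained called over both clones. In the exon 4 clone, where this left 1 KO sample, its change was then 1.35, against 1.60 with it, and was not called.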

How the results depend on the processing

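Over both clones, the condensin genes kept direction and call in all 122 gene-by-setting values (log2 change 0.54 to 2.63, adjusted *p* up to 0.0262, limma), and cohesin in 53 of 54. A minimum of 1 RPKM left only 3 condensin genes in the test, all called. Of these, *Smc2* and *Ncapd2* had rescue means of 0.374 and 0.672 RPKM and passed that minimum only through their KO level. Their calls at this setting are therefore no support for the change. The unrescaled values called 875 genes higher. No minimum level called 171 higher and 6 lower, a minimum of 1 RPKM 93 higher, no clone covariate 6 lower, and the replicate block 27 lower. Leaving out a replicate gave 174 to 265 higher, 4 to 16 lower, and a *Smc1a* change of -0.035 to 0.20.

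In the exon 6 clone, the condensin count was 2 with no minimum level and 2 with a minimum of 1 RPKM, and 0 to 6 with a replicate left out. Genes higher were 31 with no minimum, 52 with a minimum of 1 RPKM, 490 unrescaled, 287 with technical replicates kept apart, and 0 to 155 with a replicate left out. Genes lower were 3 with no minimum, 11 unrescaled, 3 with quantile normalization, 17 with technical replicates apart, 10 with that clone alone and 1 to 5 with a replicate left out.

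In the exon 4 clone, the condensin count was 2 with a pseudocount of 0.1, 1 with no minimum level, 2 with a minimum of 1 RPKM, 1 unrescaled, 0 with that clone alone and 1 to 2 with a replicate left out. Genes higher were 8 with no minimum, 45 with a minimum of 1 RPKM, 22 unrescaled, 0 with that clone alone and 10 to 56 with a replicate left out. Genes lower were 2 with no minimum, 8 with quantile normalization, 9 with technical replicates apart, 10 with the replicate block, 0 with that clone alone and 2 to 98 with a replicate left out. Unrescaled, *Smc1a* changed by 0.79 there, and with quantile normalization *Smc3* by -0.036. Leaving out a replicate gave -0.38 to 0.21 for *Smc1a* and -0.15 to 0.16 for *Smc3*.

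The difference between the clones was called for 7 genes higher when unrescaled. Its sign turned for *Ncaph* (-0.022 with a pseudocount of 1, -0.18 with quantile normalization), *Ncapd2* (-0.052 with a pseudocount of 0.1, -0.18 with quantile normalization, -0.025 with technical replicates apart), *Ncapg* (-0.24 with quantile normalization) and *Ncapg2* (0.20 with a pseudocount of 0.1, 0.38 unrescaled). With a replicate left out it ran from -0.0018 to 0.11 for *Ncaph*, -0.25 to 0.27 for *Ncapd2*, -0.14 to 0.23 for *Ncapg*, -0.20 to 0.15 for *Ncapg2*, -0.022 to 0.57 for *Smc1a* and -0.043 to 0.47 for *Rad21*. None of these differences was called.

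Where leaving out a replicate left 1 sample in a group, that sample was assumed to vary like the others. The replicate block changed no call of the 10 genes other than those of *Ncapd2*, *Ncapd3* and *Ncapg2* in single clones given above. The causes of these shifts were not tested, except that a higher minimum tests fewer genes. Depth is unknown, so how far counting error limits the low genes, such as *Ncapg*, cannot be stated.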
